A study of Mus musculus with 4 samples.

Results

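Matrix metalloproteinases and their inhibitors were examined in mouse lens epithelium after UVB irradiation. Members were all genes whose annotated symbol is Mmp, Timp or Adamts followed by a number, and each was read from its probe set, the group of array probes for that gene, with the highest mean signal. Only probe sets annotated with a single symbol were used. They gave 44 of 19938 genes, of which 22 were Mmp genes, 18 were Adamts genes and 4 were Timp genes. Mmp15 and Adamts2 were not analysed here.

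Matrix metalloproteinases (MMPs) are zinc enzymes that are made as inactive precursors, are secreted or held at the cell membrane, and cut collagens, laminins and other proteins of the extracellular matrix. ADAMTS proteases are secreted relatives that cut proteoglycans, procollagens and von Willebrand factor, and the tissue inhibitors of metalloproteinases (TIMPs) block the active site of most of these enzymes. In the eye the lens epithelium lies on a thick basement membrane, the lens capsule, and metalloproteinases in lens cells have been studied in subcapsular cataract and in the epithelial-mesenchymal transition. In skin, UV light is known to raise the transcription of several MMP genes through the transcription factor AP-1.

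The UVB-irradiated epithelia came from right eyes of C57BL/6 mice, males of 8 weeks, that were exposed under anaesthesia to UVB at 30 mJ/cm2 for 60 s and sampled 24 h later. The control epithelia came from the left eyes of the same mice, which were shielded by aluminium foil during the same anaesthesia and exposure. Each of the 2 independent experiments gave 1 array for each condition, so each group had 2 arrays. The methods give 3 mice for an animal experiment, and neither they nor the labels state if RNA of several mice was pooled for an array.

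Arrays give a relative log2 signal for each probe set, and signals of different probe sets are not RNA levels on a common scale, so each gene was compared only with itself. Array medians were 7.22 and 7.21 in UVB-irradiated epithelia and 7.19 and 7.20 in control epithelia. In all probe sets the sum of the UVB and control signals was the same in experiment 1 and in experiment 2 within 0.02, a step that the sources used here do not describe. With such values the groups do not overlap exactly where UVB minus control has the same sign in both experiments. UVB was compared with control by limma, a linear model fitted over all probe sets, with the experiment as a block. The same fit without the block counts a degree of freedom that the equal experiment sums had used up. An exact permutation test of 2 arrays against 2 cannot go below a two-sided p of 0.333, so no single value was tested in that way.

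The labelled tissue was checked on marker genes. All 9 lens epithelium markers and all 11 lens fiber markers lay above the array median on all 4 arrays, and their median log2 differences were -0.005 and -0.03. The 11 photoreceptor markers were all higher in UVB-irradiated epithelia in both experiments, with summed linear signals of 12939 and 15777 in UVB-irradiated epithelia and 8438 and 6933 in control epithelia. The 8 retinal pigment epithelium markers were also all higher in both experiments, at 5503 and 5129 in UVB-irradiated epithelia and 1989 and 2136 in control epithelia. Of 8 leukocyte and macrophage markers, 7 were higher in both experiments, and the list summed to 948 and 1037 in UVB-irradiated epithelia and 791 and 729 in control epithelia. Of 6 ciliary body and iris markers 5 were higher and 1 was lower in both experiments, with a median of 0.25, and of 6 Müller glia and astrocyte markers 3 were higher and 0 lower, with a median of 0.1575. The 7 cornea and conjunctiva markers had 1 higher and 3 lower in both experiments, and the 6 blood vessel markers 2 higher and 3 lower. Summed neutrophil markers (8 genes) were 469 and 456 in UVB-irradiated epithelia and 462 and 476 in control epithelia, and summed stroma and fibroblast markers (8 genes) were 9851 and 10113 in UVB-irradiated epithelia and 9940 and 9686 in control epithelia. No marker was at 0, which a log2 array signal does not reach. The part of such other cells in the members' values was not tested. In these bulk samples, fewer cells of a type and less RNA per cell cannot be told apart.

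Of the Mmp genes, 10 lie in a cluster on chromosome 9 between positions 7272514 and 7699585 of the mouse build GRCm38.p6, among them collagenases and stromelysins that are known as AP-1 targets. RefSeq promoter windows of that build, from 250 bases before to 50 bases after the transcription start, were found for 30 of the 44 members. The AP-1 motif TGAGTCA was searched on both strands, and 7 of the 30 windows held it, against 5.95% of 27025 genes with a window. All 7 belong to the chromosome 9 cluster. A stretch around each motif is shown because these are the members in which an AP-1 response would be looked for. The motif is in capitals, each sequence runs 5′ to 3′ on the strand of its gene, and in Mmp13 the motif lies on the opposite strand.
Mmp13 (chr9:7272454-7272510, plus strand): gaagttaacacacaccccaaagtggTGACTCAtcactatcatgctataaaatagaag
Mmp12 (chr9:7347305-7347361, plus strand): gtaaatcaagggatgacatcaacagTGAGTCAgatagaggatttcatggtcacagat
Mmp1b (chr9:7388088-7388144, minus strand): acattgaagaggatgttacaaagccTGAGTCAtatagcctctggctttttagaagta
Mmp3 (chr9:7445751-7445807, plus strand): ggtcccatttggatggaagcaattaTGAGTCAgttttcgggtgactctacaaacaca
Mmp1a (chr9:7464043-7464099, plus strand): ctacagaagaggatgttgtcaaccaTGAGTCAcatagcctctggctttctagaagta
Mmp10 (chr9:7502254-7502310, plus strand): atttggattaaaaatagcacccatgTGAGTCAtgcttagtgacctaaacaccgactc
Mmp7 (chr9:7692002-7692058, plus strand): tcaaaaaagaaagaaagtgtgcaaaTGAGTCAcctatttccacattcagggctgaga
The motif began between 35 bases before the start in Mmp13 and 93 bases before it in Mmp1b. The letters TATAAA, searched on the gene's own strand only, were in 10 of the 30 windows against 9.77% of genes, and these 10 included all 7 genes with the AP-1 motif, Mmp20, Mmp21 and Adamts1. The motif TGACGTCA, the cyclic AMP response element, which reads the same on both strands, was in 0 of the 30 windows against 2.03% of genes. A match is a description of the letters and not of binding.

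Differences between UVB-irradiated and control epithelia were small in all 44 members, and negative differences were more frequent than positive ones, as they were over all genes. Mean log2 differences of the brightest probe sets ranged between -0.21 for Mmp1b and 0.25 for Adamts1, none beyond 1.19-fold. Dimmer probe sets of Adamts9 and Adamts3 reached 0.49 and 0.45. The largest positive differences were those of Adamts1 and Mmp21, and the largest negative ones those of Mmp1b, Adamts20, Mmp1a and Mmp16. Timp3 was slightly higher in both experiments, and the other 3 inhibitors differed by 0.04 or less in each. The median difference of the members was -0.0325, beside -0.025 over all genes, and the median absolute difference was 0.0725, beside 0.07 over all genes.

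No member passed an adjusted p of 0.05 (limma with the block, Benjamini-Hochberg over all probe sets), nor did any other gene (0.0%), and the members' adjusted p ranged between 0.357 and 0.965. At an unadjusted p of 0.05, 1 member was higher (Mmp21) and 3 were lower (Mmp1b, Adamts13 and Adamts6). Over all genes 5.14% were higher and 8.03% were lower at that p, so that 1 and 3 of 44 are near the background. Without the block 1 member (Mmp21) was higher and 5 (Mmp1b, Adamts13, Adamts6, Mmp2 and Adamts8) were lower at an adjusted p of 0.05, against 6.19% and 12.0% of all genes.

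In both experiments 8 members (18.2%) were higher after UVB, against 22.6% of all genes, and 24 members (54.5%) were lower, against 39.5% of all genes. A further 10 had opposite signs, and 2 (Adamts10 and Adamts12) had a difference of 0 in experiment 2. The count of lower members moved with the scaling of the arrays. It was 20 (45.5%) beside 7 higher after quantile normalization, where 36.9% of all genes were lower. It was 27 (61.4%) beside 5 higher once the array medians were made equal, where 47.3% of all genes were lower. With equal 75th percentiles it was 15 (34.1%) beside 8 higher, where 31.5% of all genes were lower. The share of lower members was above that of all genes under each scaling, by the least with equal 75th percentiles, and no test was run on it. It rested on small differences. With at least 0.1 in each experiment, 4 of 44 members were lower, beside 2323 of 19938 genes, and 2 were higher, beside 1476 genes.

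**Figure D1:**
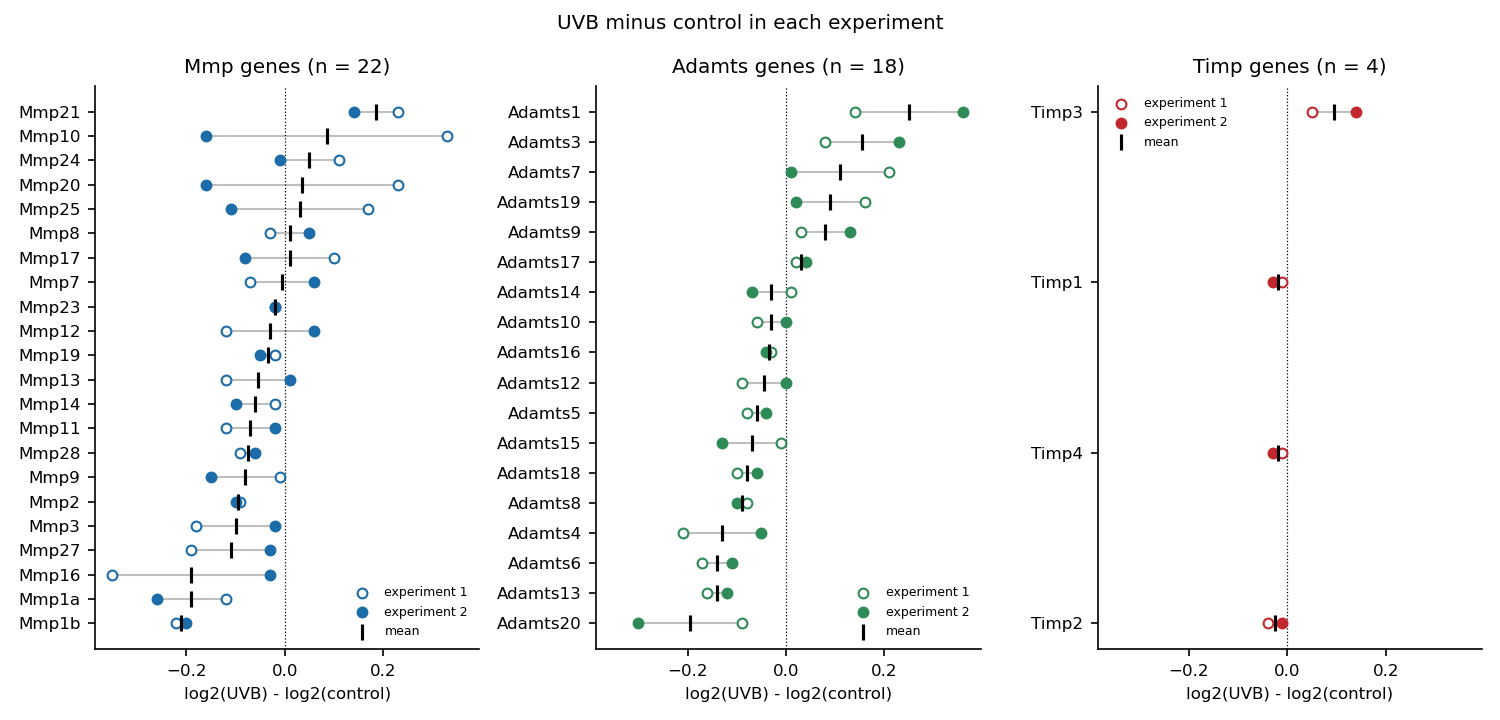
UVB minus control in log2 units (horizontal axis) for each member (rows) of the Mmp, Adamts and Timp families. Open points are experiment 1, filled points experiment 2, and black bars their mean, which lies between -0.21 (Mmp1b) and 0.25 (Adamts1).

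The inhibitors were compared first. Timp3, which binds to the matrix and is strongly made by the retinal pigment epithelium, had log2 signals of 12.01 and 12.05 in UVB-irradiated epithelia (experiment 1, then experiment 2, as in every pair of values), against 11.96 and 11.91 in control epithelia. Both UVB arrays were above both control arrays, by 0.05 and 0.14 within the experiments. The fold was 1.07 with a 95% confidence interval between 0.954 and 1.2 and an adjusted p of 0.41 (limma with the block). Retinal pigment epithelium markers were higher on the same UVB arrays, with median differences of 1.37 in experiment 1 and 0.975 in experiment 2. The part of such cells in the Timp3 value was not tested.

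Timp2, which inhibits MMP2 and also takes part in its activation by MMP14, had 11.74 and 11.76 in UVB-irradiated epithelia, against 11.78 and 11.77 in control epithelia. Its differences were -0.04 and -0.01, and the interval of its fold ran between 0.907 and 1.07. After quantile normalization its sign turned (0.0006). Timp1, an inducible secreted inhibitor, had 7.88 and 7.87 in UVB-irradiated epithelia, against 7.89 and 7.90 in control epithelia. Timp4 had 5.54 and 5.53 in UVB-irradiated epithelia, against 5.55 and 5.56 in control epithelia, and its signal was below the 25th percentile of every array. For Timp1 and Timp4 the groups did not overlap, yet the mean difference was only -0.02 in each, with a fold interval between 0.913 and 1.07 and an adjusted p of 0.734 (limma with the block). A count of 3 Timp genes lower in both experiments became 1 after quantile normalization and 0 with equal 75th percentiles, so no direction can be given for the family.

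**Figure D2:**
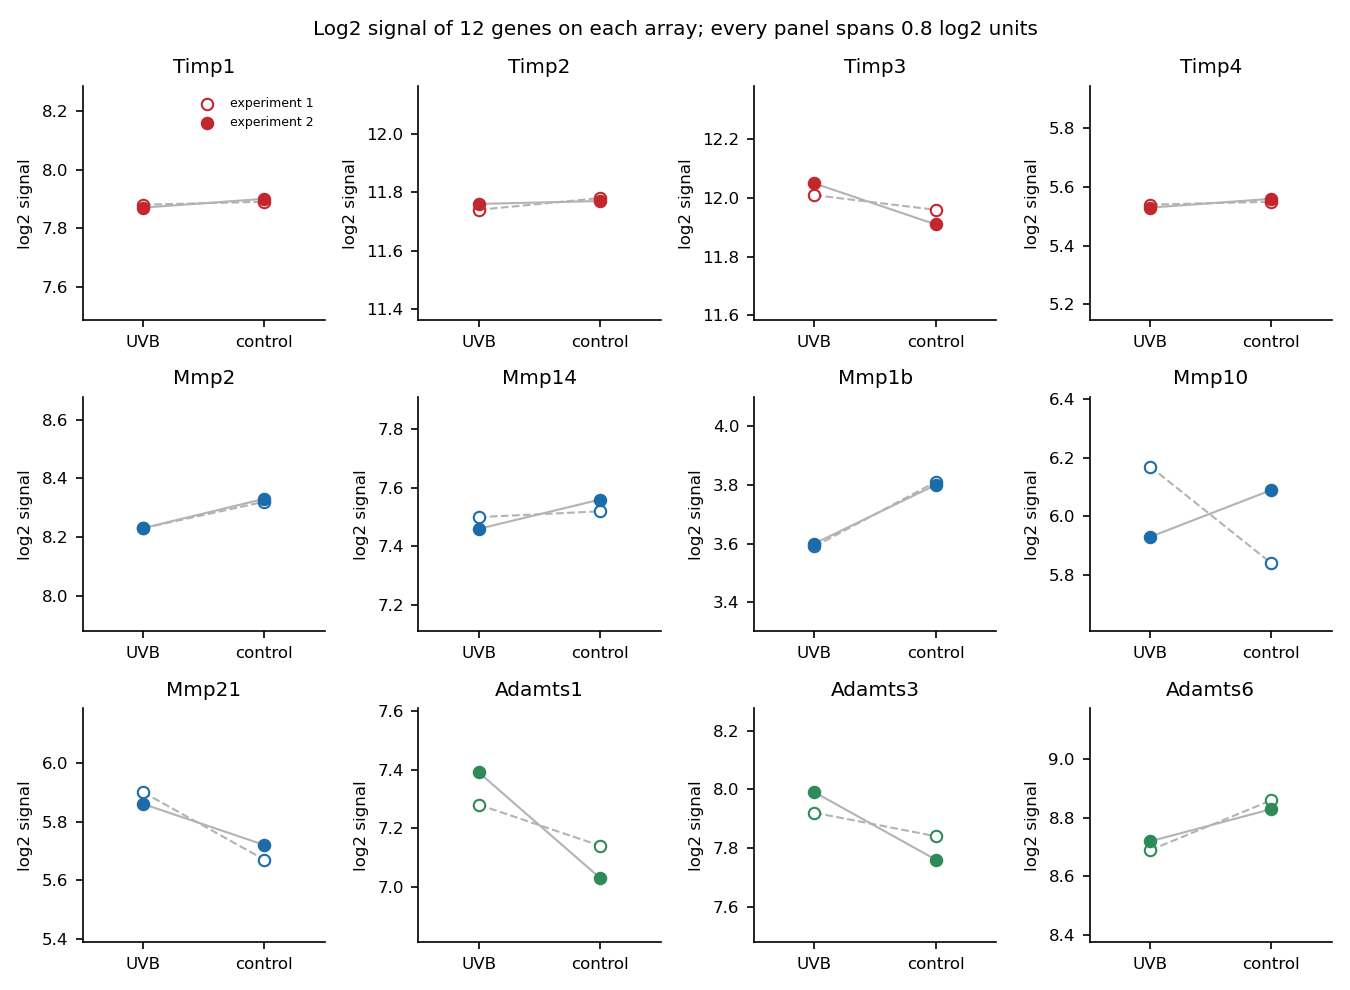
Log2 signals (vertical axis, each panel spanning 0.8 log2 units) of 12 members on the UVB and control arrays, with lines joining the arrays of an experiment (open and dashed, experiment 1, filled and solid, experiment 2). Lines of the experiments nearly coincide in Mmp1b and Mmp2, slope in opposite directions in Mmp10, and are almost flat in Timp1, Timp2 and Timp4. Equal experiment sums make the lines meet near the middle in every panel.

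The gelatinases and the membrane-bound activator of gelatinase A were lower in both experiments by small amounts in the deposited values. Their mean differences kept their sign under the 3 other scalings. With equal 75th percentiles, Mmp9 and Mmp14 were no longer lower in experiment 1, where their deposited differences were only -0.01 and -0.02. Mmp2, gelatinase A, which degrades type IV collagen of basement membranes, had 8.23 and 8.23 in UVB-irradiated epithelia, against 8.32 and 8.33 in control epithelia. Both UVB arrays were below both control arrays, by nearly the same amount in each experiment. The fold was 0.936 (95% interval between 0.868 and 1.01), with an adjusted p of 0.36 with the block and 0.0283 without it (limma). Mmp9, gelatinase B, had 6.46 and 6.39 in UVB-irradiated epithelia, against 6.47 and 6.54 in control epithelia. Its difference lay almost entirely in experiment 2, at -0.15 beside -0.01 in experiment 1, and the interval of its fold ran between 0.813 and 1.1. Mmp14, the membrane-bound protease that activates the MMP2 precursor, had 7.50 and 7.46 in UVB-irradiated epithelia, against 7.52 and 7.56 in control epithelia. It was lower by 0.02 and 0.1, with a fold interval between 0.863 and 1.07.

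In the chromosome 9 cluster no gene was higher in both experiments, 4 of 10 were lower in both and 6 had opposite signs. Of all genes, 22.6% were higher in both, 39.5% were lower in both and 30.8% had opposite signs. The 4 of 10 lower genes are therefore near the background, and no test was run on these counts. All 10 signals lay between 3.59 and 6.17, none above an array median. Mmp1b, one of the mouse relatives of the human collagenase MMP1, had 3.59 and 3.60 in UVB-irradiated epithelia, against 3.81 and 3.80 in control epithelia. The arrays of each group differed by 0.01, and the groups lay 0.21 apart on the log2 scale, a fold of 0.865 (95% interval between 0.8 and 0.934). Before adjustment p was 0.0137, after it 0.357 (limma with the block), and without the block the adjusted p was 0.021. Its signal was below the 25th percentile on every array.

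Mmp1a, its close paralog, had 4.57 and 4.50 in UVB-irradiated epithelia, against 4.69 and 4.76 in control epithelia. Again the groups did not overlap, and the difference was larger in experiment 2 (-0.26) than in experiment 1 (-0.12). How far probes of Mmp1a and Mmp1b bind RNA of the other copy is unknown here, so the pair is uncertain as separate measurements. Mmp3, stromelysin-1, which cuts proteoglycans and activates other MMP precursors, had 5.45 and 5.53 in UVB-irradiated epithelia, against 5.63 and 5.55 in control epithelia. Mmp27 had 5.20 and 5.28 in UVB-irradiated epithelia, against 5.39 and 5.31 in control epithelia. In Mmp3 and in Mmp27 nearly all of the difference lay in experiment 1, at -0.18 and -0.19, beside -0.02 and -0.03 in experiment 2. The signals of Mmp1a, Mmp3 and Mmp27 were also below the 25th percentile on all 4 arrays.

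Mmp10, stromelysin-2, had 6.17 and 5.93 in UVB-irradiated epithelia, against 5.84 and 6.09 in control epithelia. The groups overlapped, and UVB was higher by 0.33 in experiment 1 and lower by 0.16 in experiment 2. Mmp20, the enamel protease enamelysin, had 6.03 and 5.83 in UVB-irradiated epithelia, against 5.80 and 5.99 in control epithelia, again with 0.23 in experiment 1 and -0.16 in experiment 2. Mmp13, collagenase-3, had 5.86 and 5.93 in UVB-irradiated epithelia, against 5.98 and 5.92 in control epithelia, with overlapping groups. The neutrophil collagenase Mmp8, the macrophage elastase Mmp12 and matrilysin, Mmp7, had opposite signs with mean differences between -0.03 and 0.01. Leaving out UVB array 1 or control array 1 turned the sign of Mmp10 (to -0.035 or -0.04) and of Mmp20 (to -0.065 or -0.06).

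The 7 members with an AP-1 motif had a median difference of -0.055, ranging between -0.21 and 0.085, with 0 higher and 3 lower in both experiments. The 23 members whose window lacked it had a median of -0.02, with 6 higher and 11 lower in both experiments. Over all genes the medians were -0.0225 for 844 genes with the motif, of which 23.0% were higher and 38.7% lower in both experiments, and -0.025 for 14770 genes without it, of which 22.1% were higher and 40.2% lower. No test was run on these lists.

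The other 12 Mmp genes had 1 member (8.33%) higher in both experiments, 8 (66.7%) lower in both and 3 with opposite signs. Over all genes 22.6% were higher and 39.5% lower in both. The lower count depended on the scaling, as Mmp9, Mmp14, Mmp19 and Mmp23 lost the shared sign with equal 75th percentiles. Among all 22 Mmp genes 12 (54.5%) were lower in both, but 8 (36.4%) with equal 75th percentiles, where 31.5% of all genes were lower. Mmp21, a secreted MMP known for its role in the left-right asymmetry of embryos, had 5.90 and 5.86 in UVB-irradiated epithelia, against 5.67 and 5.72 in control epithelia. It was the single Mmp gene that was higher in both experiments, by 0.23 and 0.14, and the groups did not overlap. Its fold was 1.14 (95% interval between 1.02 and 1.27), and limma gave an unadjusted p of 0.0388 with the block. The adjusted p was 0.357 with the block and 0.0483 without it (limma). The signal was below the 25th percentile on all 4 arrays.

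Among the membrane-bound MMPs, Mmp16 had 6.79 and 6.95 in UVB-irradiated epithelia, against 7.14 and 6.98 in control epithelia. UVB was lower by 0.35 in experiment 1 but by only 0.03 in experiment 2, which gave a wide fold interval between 0.644 and 1.19. Mmp25, a membrane protease known from leukocytes, had 6.04 and 5.90 in UVB-irradiated epithelia, against 5.87 and 6.01 in control epithelia. Like Mmp10 and Mmp20, it was higher in experiment 1 (0.17) and lower in experiment 2 (-0.11), and its mean turned to -0.04 without UVB array 1 or without control array 1. Mmp17 and Mmp24, also held at the membrane, had opposite signs too, with means of 0.01 and 0.05. The secreted Mmp11, Mmp19 and Mmp28 and the membrane-anchored Mmp23 were lower in both experiments, with mean log2 differences between -0.075 and -0.02.

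**Figure D3:**
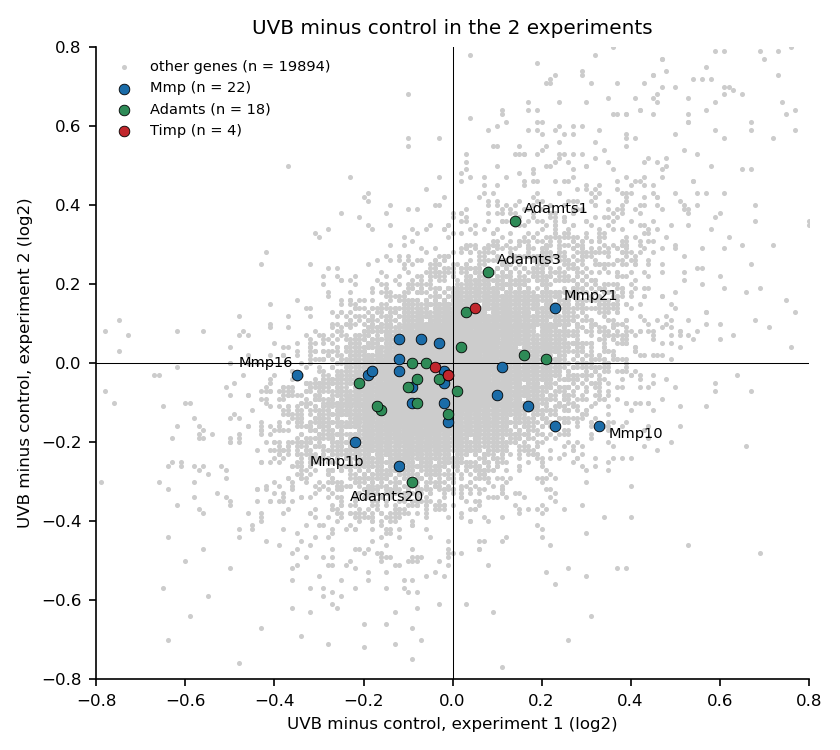
UVB minus control (log2) of each gene in experiment 1 (horizontal axis) and experiment 2 (vertical axis), members in colour and 19894 other genes in grey, of which 123 lie outside the drawn range of 0.8 either way. Members lie within the grey cloud, with 24 below 0 and 8 above 0 on both axes, and Mmp10 furthest into the lower right.

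Of the 18 Adamts genes, 6 were higher and 9 lower in both experiments, against 22.6% and 39.5% of all genes, and their median difference was -0.04. These counts became 5 and 10 after quantile normalization and 3 and 12 after centring on the median. With equal 75th percentiles they were 6 and 7. The shares of all genes moved with the scaling too, and no test was run on the counts. Adamts1, which cuts versican and aggrecan and is induced by inflammation in other tissues, had 7.28 and 7.39 in UVB-irradiated epithelia, against 7.14 and 7.03 in control epithelia. Both UVB arrays were above both control arrays, by 0.14 and 0.36 within the experiments. The fold of 1.19 was the largest among the brightest probe sets of the members (95% interval between 0.955 and 1.48), with an adjusted p of 0.368 (limma with the block). Adamts9, another versican-cutting protease, had 8.32 and 8.37 in UVB-irradiated epithelia, against 8.29 and 8.24 in control epithelia, higher by 0.03 and 0.13.

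Other proteases of that substrate class had negative differences. Adamts4, the aggrecan-cutting aggrecanase-1, had 9.30 and 9.38 in UVB-irradiated epithelia, against 9.51 and 9.43 in control epithelia. Adamts5, aggrecanase-2, whose gene lies beside Adamts1 on chromosome 16, had 9.83 and 9.85 in UVB-irradiated epithelia, against 9.91 and 9.89 in control epithelia. Neither pair of groups overlapped, and the mean differences were -0.13 and -0.06, with adjusted p of 0.435 and 0.445 (limma with the block). Adamts20, known in mice for pigment cell development, had 5.75 and 5.65 in UVB-irradiated epithelia, against 5.84 and 5.95 in control epithelia, and its fold interval ran between 0.708 and 1.08. Adamts8 had 6.39 and 6.38 in UVB-irradiated epithelia, against 6.47 and 6.48 in control epithelia, and its adjusted p was 0.361 with the block and 0.0321 without it (limma).

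Adamts13, the protease of von Willebrand factor, had 6.50 and 6.52 in UVB-irradiated epithelia, against 6.66 and 6.64 in control epithelia. Adamts6, which is known to act on fibrillin microfibrils, had 8.69 and 8.72 in UVB-irradiated epithelia, against 8.86 and 8.83 in control epithelia. For Adamts13 and Adamts6 the groups did not overlap and the mean difference was -0.14 in each, with unadjusted p of 0.0375 and 0.0468 and an adjusted p of 0.357 in both (limma with the block). Without the block the adjusted p were 0.0302 and 0.0432. Adamts10 and Adamts17, whose human counterparts are mutated in Weill-Marchesani syndromes with dislocated lenses, differed by -0.03 and 0.03. Adamts18, whose human counterpart is linked to developmental eye disease, had 10.94 and 10.96 in UVB-irradiated epithelia, against 11.04 and 11.02 in control epithelia. Its groups did not overlap, at a mean difference of -0.08 and an adjusted p of 0.389 (limma with the block).

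Adamts7, which cuts cartilage oligomeric matrix protein, had 7.32 and 7.22 in UVB-irradiated epithelia, against 7.11 and 7.21 in control epithelia. Adamts19 had 6.33 and 6.26 in UVB-irradiated epithelia, against 6.17 and 6.24 in control epithelia. In these genes UVB was higher in both experiments, but the difference of experiment 2 was only 0.01 and 0.02. Adamts14, a procollagen protease, had opposite signs of 0.01 and -0.07, and the related Adamts12, Adamts15 and Adamts16 had mean differences of -0.045, -0.07 and -0.035.

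Adamts3, the procollagen protease that is also needed to activate the lymphatic growth factor VEGF-C, had 7.92 and 7.99 in UVB-irradiated epithelia, against 7.84 and 7.76 in control epithelia. The groups did not overlap, and the fold was 1.11 (95% interval between 0.95 and 1.31), with an adjusted p of 0.389 (limma with the block). The gene was measured by 16 probe sets, and all 16 had a higher mean in UVB-irradiated epithelia, 15 of them in both experiments. Their log2 differences ranged between 0.045 and 0.45 with a median of 0.265, so that most were larger than the 0.155 of the brightest probe set. The probe sets share the same 4 RNA samples and are not replicates, and this pattern was picked out after the values were seen.

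Adamts9 and Adamts17 also had several probe sets. For Adamts9, 6 probe sets ranged between -0.02 and 0.49, and 3 of them were higher in both experiments. For Adamts17, 5 probe sets ranged between -0.23 and 0.09, with 2 higher and 2 lower in both experiments. The choice of probe set therefore sets the value of these genes more than that of the others, which had a single one.

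**Figure D4:**
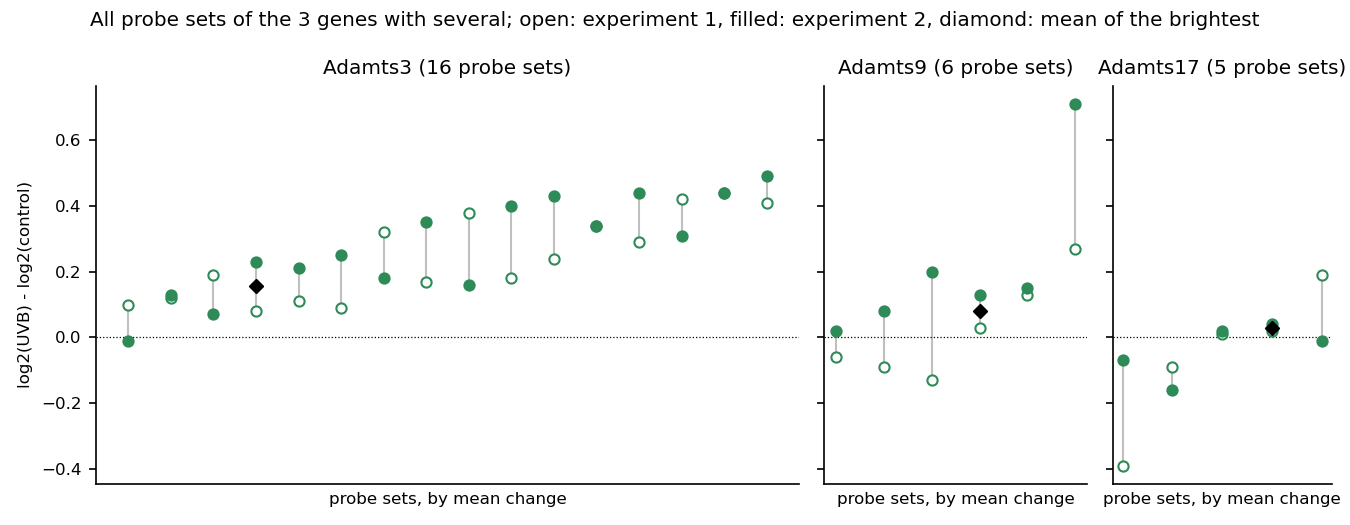
UVB minus control (log2, vertical axis) of every probe set of Adamts3, Adamts9 and Adamts17, ordered by mean difference (open points, experiment 1, filled points, experiment 2, diamond, mean of the brightest probe set). Adamts3 lies above 0 in all 16 means, between 0.045 and 0.45, whereas Adamts17 spreads on both sides of 0.

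Genes that act with the members were listed by role, and 47 of the 49 listed had a probe set. In both experiments 15 (31.9%) were higher and 12 (25.5%) lower, against 22.6% and 39.5% of all genes. At an unadjusted p of 0.05, 3 were higher (Plat, Adam12 and Adamtsl2) and 2 lower (Spock3 and Adamtsl4). Over all genes 5.14% were higher and 8.03% lower at that p, so that 3 and 2 of 47 are near the background. None of the listed genes passed an adjusted p of 0.05 (limma with the block). Their median difference was 0. The same shares of all genes stand beside the counts of each list below. The 5 convertases and inducers, which remove the propeptide of membrane-bound MMPs and ADAMTS proteases or induce MMPs, had 1 higher and 3 lower in both experiments, with Pcsk5 at -0.06, Bsg at -0.04 and Pcsk7 at 0.03. Of 11 other inhibitors and clearance genes 3 were higher and 2 lower in both experiments, among them Col18a1, the source of endostatin, at 0.39, and Spock3 and Rarres1 at -0.15 and -0.13. Of 7 genes of plasminogen activation, which feeds MMP activation, and of its inhibition, 2 were higher in both experiments and 0 were lower. These were Plat, an activator, at 0.14, and Serpinb2, an inhibitor of such activators, at 0.12. The Serpinb2 signal was below the 25th percentile on all 4 arrays, and its difference in experiment 2 was only 0.01.

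The relatives of the members were mixed as well. Of 9 ADAM proteases 4 were higher and 1 lower in both experiments, with Adam19, Adam12 and Adam8 at 0.14, 0.12 and 0.11. Of 6 ADAMTS-like proteins, which lack the protease domain, 2 were higher and 2 lower. Adamtsl2 had 7.43 and 7.47 in UVB-irradiated epithelia, against 7.17 and 7.14 in control epithelia, a fold of 1.23 with an adjusted p of 0.357 (limma with the block). Adamtsl1 was at 0.185, and Adamtsl4, whose human counterpart is mutated in ectopia lentis, at -0.155. Of 5 astacin and meprin proteases 1 was higher and 2 lower in both experiments, with Tll1 at 0.07, Tll2 at -0.17 and Mep1a at -0.08.

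Among 4 hyalectans, the proteoglycans that Adamts1, Adamts4, Adamts5, Adamts9 and Adamts20 cut, Vcan differed most. Vcan, versican, had 10.16 and 10.53 in UVB-irradiated epithelia, against 9.70 and 9.33 in control epithelia. Both UVB arrays were above both control arrays, by 0.46 and 1.20, a mean fold of 1.78 with an adjusted p of 0.361 (limma with the block). Acan was at -0.175 and Bcan at 0.095. Photoreceptor markers were higher on the same arrays, with median differences of 0.7 in experiment 1 and 1.13 in experiment 2, and leukocyte and macrophage markers with medians of 0.12 and 0.3. The part of such cells in the values of Vcan and the other listed genes was not tested.

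**Figure D5:**
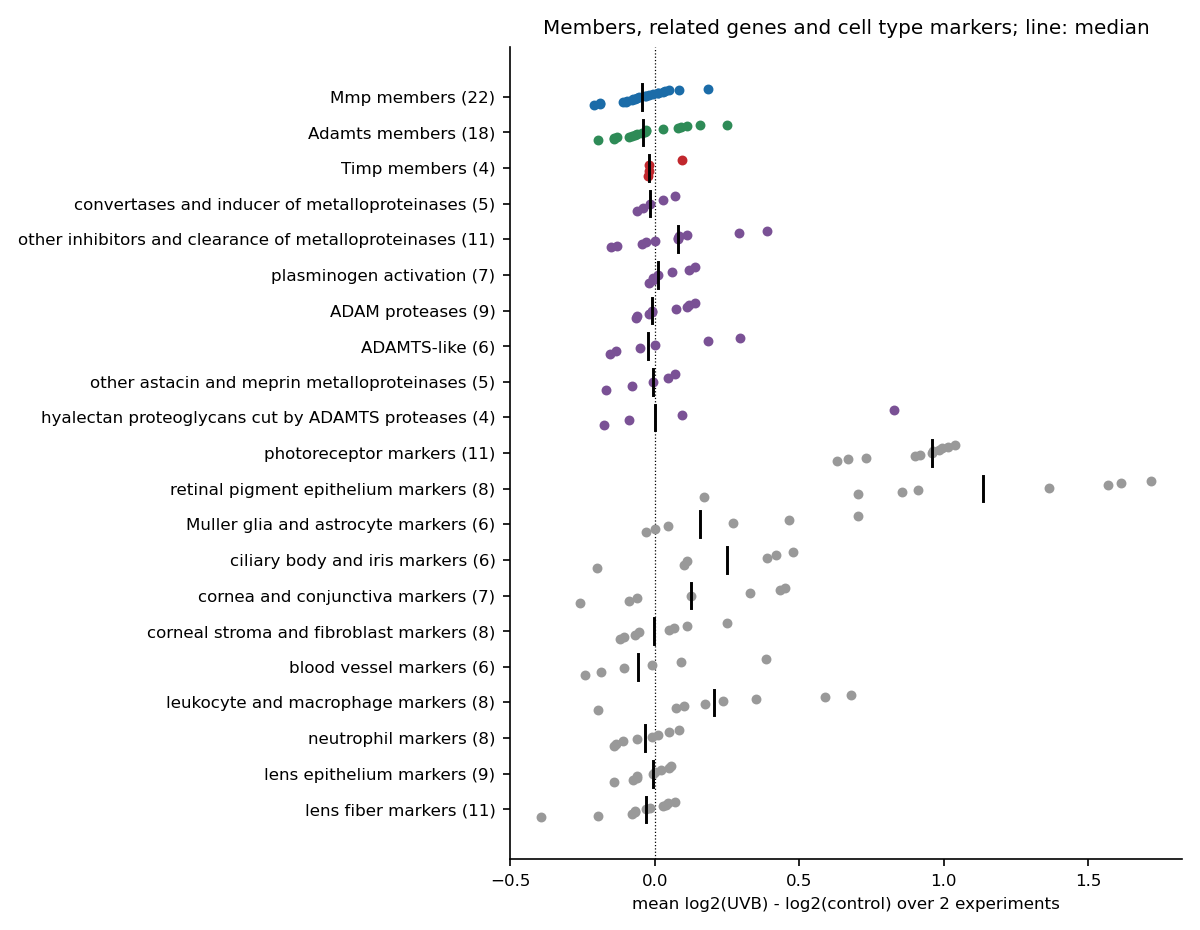
Mean UVB minus control (log2, horizontal axis) of each gene in the member families, the lists of related genes and the cell type marker lists (rows, with the number of genes), with black lines at the medians. The 3 member families lie between -0.21 and 0.25 around 0, and the photoreceptor and retinal pigment epithelium markers have medians of 0.96 and 1.14.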

How the data were processed

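Total RNA of lens epithelia was hybridised to 4 Affymetrix arrays. A human array is named in the methods, but the probe sets matched mouse annotation, which was used here. The deposited values are log2 signals that the authors normalized between arrays. Per the submitters' processing notes this was done in Affymetrix Expression Console, with settings not given in the sources used here. Of 28944 probe sets, 21789 had 1 symbol, 1621 had several and 5534 had none. Detection calls were not used, so a low signal is not called absent.

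The test was limma (3.58.1, under R 4.3.3), two-sided, of UVB against control, with the experiment as a block, which leaves 1 residual degree of freedom, and with Benjamini-Hochberg adjustment over all probe sets. The fit was tested on simulated data. Tables and plots were made with Python 3.11.15, pandas 2.3.3 and matplotlib 3.10.9. Pairing comes from the methods, in which the 2 eyes of a mouse were compared, and from the titles. The title of 1 array of each group ends in 2, which was read as experiment 2, and the other titles carry no number. Across probe sets, arrays of the same experiment deviated from their group means with a correlation of -0.998, as equal experiment sums make them, so the check cannot show pairing by itself. The methods do not say whether the arrays of a group came from separate animals beyond calling the experiments independent, and p-values measure only the spread between these arrays. The number of arrays limits the precision.

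The members and lists were chosen with earlier results of these data known. Genes were named by a rule: all Timp genes, and in the Mmp and Adamts families up to 5 in each direction with the largest mean difference whose sign both experiments shared, and up to 3 of opposite signs with the largest gap. Also named were Mmp2, Mmp3, Mmp9, Mmp13, Mmp14, Adamts1, Adamts4, Adamts5 and Adamts9, and up to 3 genes of each pathway list. Other members were named to complete the families, after their values were seen. Alternatives were the fit without the block, an intensity trend or a robust prior, the methods' t-test, 3 other scalings, averaging a gene's probe sets, a filter on dim probe sets, other thresholds, leaving out each array and each experiment alone. Promoter windows came from RefSeq on GRCm38.p6.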

Additional observations from a re-analysis of the deposited data

How the results depend on the processing

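Most member counts moved with the pairing. With no replicate block the members past an adjusted p of 0.05 were 1 higher and 5 lower, against 0 and 0 with the block. Those past an unadjusted p of 0.05 were 4 higher and 10 lower, against 1 and 3. Of all 28944 probe sets, 11020 passed that unadjusted p without the block and 3878 with it (limma). With any 1 array left out, the fit without pairing called 0 members after adjustment, the lone array of a group being assumed to vary like those of the other. The methods' t-test gave 3 lower members after adjustment and 9 before it, and no share of all genes is given here for these counts. That t-test passes any difference where the arrays within each group have equal rounded values. This was so in Mmp23, with 6.36 on both UVB arrays and 6.38 on both control arrays. At an unadjusted p of 0.05 the higher members were 0 with an intensity trend, 2 with a robust prior, 2 with a gene's probe sets averaged and 0 among probe sets above the median level, and the lower members were 5 after centring on the median and between 5 and 6 when each array in turn was left out of the fit without pairing. At an unadjusted p of 0.01, with the block and the brightest probe sets, no member was higher (0) or lower (0).

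Members higher in both experiments were 8, but 5 after centring on the median, 5 above the median level and 2 with at least 0.1 in each experiment. Those lower in both were 24, but 15 with equal 75th percentiles, 10 above the median level and 4 with at least 0.1 in each experiment. The Mmp median of -0.045 became -0.065 after centring on the median, -0.025 with equal 75th percentiles and -0.0725 above the median level. The Timp median of -0.02 became -0.0022 after quantile normalization, -0.04 after centring, 0 with equal 75th percentiles and -0.01 in experiment 1 alone. The Adamts median of -0.04 became -0.06 after centring, -0.02 with equal 75th percentiles, -0.03 above the median level, -0.0445 with the mean of the probe sets, -0.045 in experiment 1 alone, and between -0.045 and -0.0425 with an array left out. For the lower counts above the median level fewer members were tested, and for the other changes the cause was not tested.

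Of 707 values of 49 named genes under these alternatives, 677 did not turn in sign and, where tested, kept their side of an adjusted p of 0.05. A value of 0, as for Timp1 and Timp4 with equal 75th percentiles, was counted as not turned. Another 18 passed that adjusted p only without the block (13) or with the methods' t-test (5, among them Spock3, with equal values per group). The other 12 turned in sign. Timp2 turned to 0.0006 after quantile normalization. Without UVB array 1 or control array 1, Mmp10 turned to -0.035 and -0.04, Mmp20 to -0.065 and -0.06, and Mmp25 to -0.04 in both cases. In experiment 2 alone Mmp10 and Mmp20 were at -0.16, Mmp25 at -0.11 and Mmp13 at 0.01, and in experiment 1 alone Adamts14 was at 0.01.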
